A study of Homo sapiens with 14 samples.

Results

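The IL6 family is described here through 10 listed genes, out of 58434 gene symbols counted: the receptor subunits OSMR, IL6ST and LIFR, the cytokines IL6, LIF and IL11, the kinases JAK1 and JAK2, the transcription factor STAT3 and the inhibitor SOCS3. They were chosen by name, for their place in the pathway, with earlier results of these data known, and all 10 were measured in every library. MDA-MB-231 is an established human triple-negative breast cancer cell line. It carried a stable, doxycycline-inducible short hairpin RNA (shRNA), either non-silencing (NS in the sample labels, shNSi here) or directed against DAP5 (shDAP5), the translation initiation factor encoded by EIF4G2. All cultures of both lines received doxycycline at 1 µg/ml for 6 days, and cycloheximide before lysis to hold ribosomes on mRNA. There were 2 cultures of each line. From each culture total mRNA, light polysome mRNA (few ribosomes, poorly translated) and heavy polysome mRNA (many ribosomes, well translated) were sequenced, and the shNSi cultures also had a moderate polysome pool, giving 14 libraries. Whether a line was a single clone is not given in the sources used here.

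Cytokines of this family bind a receptor that contains IL6ST (gp130), the shared signaling subunit. IL6ST pairs with OSMR to bind oncostatin M, with LIFR to bind LIF, and works with IL6R or IL11RA for IL6 and IL11. The receptor chains carry JAK kinases, which phosphorylate STAT3, and STAT3 induces SOCS3, a feedback inhibitor of the JAKs. In breast cancer cells this pathway is known for its links to invasion, stem-like states and inflammation.

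DAP5 acts at translation initiation, so the sequence around the start codon is shown for the 7 members that passed the test in heavy polysomes, from GENCODE v29 on GRCh38 (the counts themselves were made on another build, hg19). Each window reads 5′ to 3′ with the start codon in capitals. It holds 12 bases before and 9 after the ATG of the principal transcript.
OSMR: aaaccagaactgATGgctctattt
IL6ST: tatccgcgcaagATGttgacgttg
JAK1: acagctgaataaATGcagtatcta
STAT3: gattttagcaggATGgcccaatgg
IL6: aggagcccagctATGaactccttc
IL11: ccctgtggggacATGaactgtgtt
SOCS3: gctccgtgcgccATGgtcacccac

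The start codon of OSMR lies at chr5:38869045-38869047 on the plus strand, after a leader of 402 bases and before a coding sequence of 2937 nucleotides. That of IL6ST lies at chr5:55976276-55976278 on the minus strand, before a coding sequence of 2754 nucleotides. That of JAK1 lies at chr1:64886262-64886264 and that of STAT3 at chr17:42348514-42348516, both on the minus strand, with coding sequences of 3462 and 2310 nucleotides. The coding sequences of IL6 (start codon at chr7:22727263-22727265, plus strand), IL11 (chr19:55370308-55370310, minus strand) and SOCS3 (chr17:78359093-78359095, minus strand) are short, with 636, 597 and 675 nucleotides. A purine 3 bases before the ATG, the most constrained base of a strong start context, was present in 6 of the 10 members and in 85.1% of 18343 coding genes. A G directly after the ATG was present in 4 of the 10 members and in 50.6% of coding genes. Both were present together in 2 members, STAT3 and SOCS3, and in 42.6% of coding genes.

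Each library held between 25899838 and 30795910 counts, and Pearson's r between the 2 cultures of a group lay between 0.965 and 0.987 across 16235 genes, which are not independent replicates. Levels are given as CPM, the usual measure of a count relative to library size, scaled by TMM over the 14 libraries, so they are relative to the other mRNAs of a library. The labels were checked with EIF4G2, which stood at 1392 and 1359 CPM in the shNSi total libraries and at 526 and 730 CPM in the shDAP5 total libraries. Its log2 change was −1.11 (standard error 0.18, adjusted p = 0.0172 by edgeR's quasi-likelihood test). Without shDAP5 culture 1 it was −0.90, in a fit with a single shDAP5 culture whose p-value is not read here. The line's identity was checked with 3 markers it should express, VIM, CD44 and KRT18, whose lowest level in any library was 105 CPM, and with 3 it should lack: PGR was at 0 in every library, ESR1 did not exceed 0.607 CPM and CDH1 did not exceed 0.249 CPM. In shDAP5 the light libraries bear a code that in shNSi belongs to the moderate pool, and the titles of the total libraries add the word polysome. Both kinds were assigned by title, and every light, total and translation efficiency value rests on that reading. Heavy values rest on heavy pools taken alike in both lines, although only shNSi had a moderate pool, and this was not tested.

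In shNSi total mRNA IL11, LIF and SOCS3 were the most abundant members per length, and LIFR and JAK2 the least. On the scale of CPM per kilobase of exon, the mean level was 43.1 for IL11, 23.6 for LIF and 23.6 for SOCS3. STAT3 followed with 16.8, IL6ST with 14.7, JAK1 with 14.4, IL6 with 13.6 and OSMR with 8.65, and neighbours in this order overlapped between cultures in several cases: IL6 stood at 7.65 and 19.6 in the 2 cultures, and JAK1 at 15.8 and 12.9. LIFR had a mean of 0.927 and JAK2 of 0.470, both apart from the rest. Oncostatin M itself was almost unread, with at most 0.0361 CPM in any library, as were IL27, IL31 and CNTFR, so the cytokine that OSMR is named for was not detectable in these cells at this depth. IL6R was present at 5.98 to 6.37 CPM and IL11RA at 2.26 to 2.99 CPM in shNSi total mRNA.

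**Figure D1:**
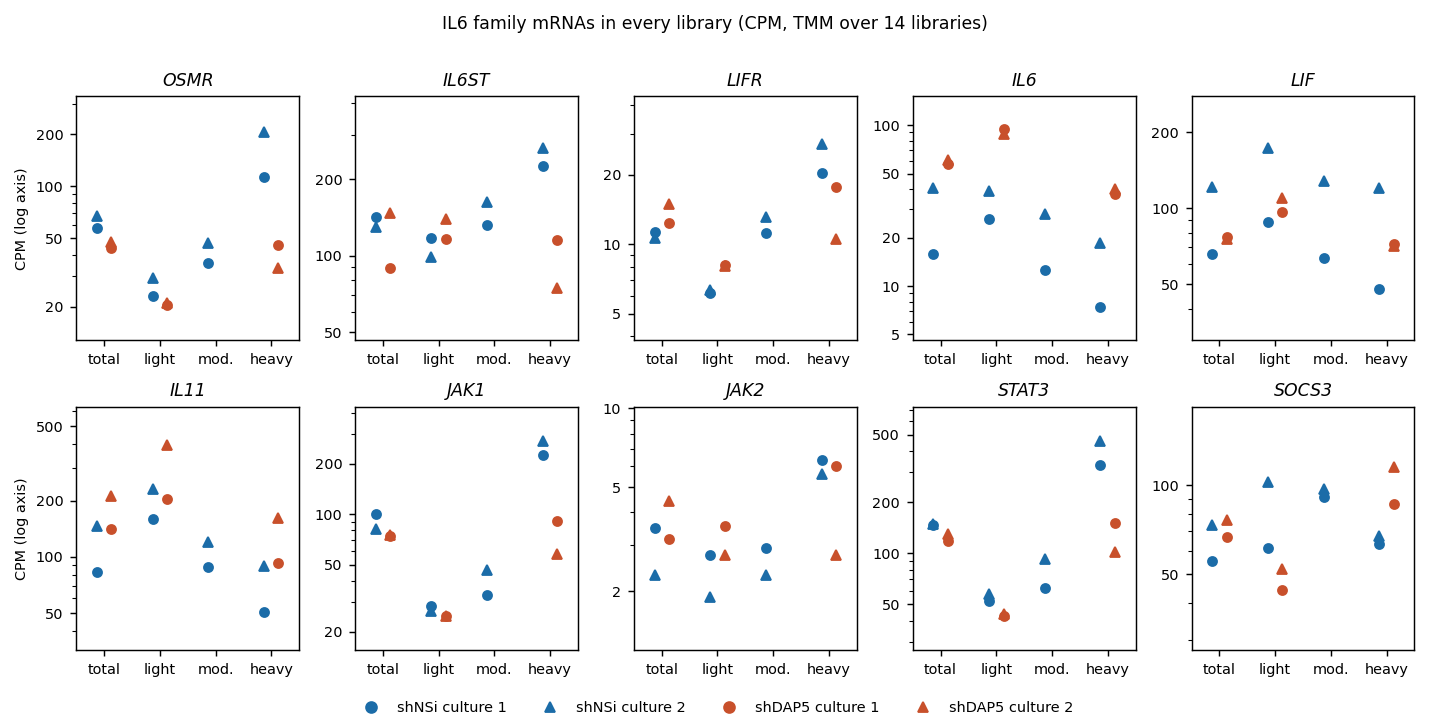
CPM of each member (log axis) in total, light, moderate and heavy polysome libraries, with 1 point for each shNSi culture (blue) and each shDAP5 culture (orange). OSMR, JAK1 and STAT3 stand far higher in shNSi heavy polysomes than in any other library, and IL6 is higher in shDAP5 than in shNSi in every fraction that both lines have.

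Along the gradient of the control cells the receptors, kinases and STAT3 had higher CPM in heavy than in light polysomes, and the ligands lower CPM. CPM are relative to each library, so these ratios do not give the share of an mRNA's molecules in a fraction. JAK1 in shNSi cells went from 28.3 and 26.6 CPM in light polysomes, through 33.0 and 46.4 in the moderate pool, to 225 and 273 in heavy polysomes. The log2 ratio of heavy to light within a culture was 2.99 and 3.36 for JAK1, 2.68 and 3.0 for STAT3 and 2.28 and 2.83 for OSMR. The ligands ran the other way: that ratio was −1.81 and −1.06 for IL6, −1.66 and −1.36 for IL11 and −0.88 and −0.52 for LIF. SOCS3, with ratios of 0.05 and −0.60, had its highest shNSi polysome levels in 1 culture in light polysomes (102 CPM) and in the other in the moderate pool (91.2 CPM).

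In shDAP5 cells the log2 ratio of heavy to light was below both shNSi cultures for the receptors, the kinases and STAT3, and above both for SOCS3 and IL11. With 2 cultures against 2, such a separation has a two-sided exact permutation p of 0.333 at the smallest. Its share over all genes was not counted. The shDAP5 ratio was 1.16 and 0.67 for OSMR, 1.86 and 1.22 for JAK1 and 1.82 and 1.2 for STAT3. JAK2 went from 1.21 and 1.56 in shNSi cells to 0.76 and −0.01 in shDAP5 cells. IL6ST went from 0.94 and 1.42 in shNSi cells to −0.02 and −0.91 in shDAP5 cells. SOCS3 stood at 0.97 and 1.15 and IL11 at −1.14 and −1.31. The ratios of LIF, −0.42 and −0.64, overlapped with those of the control cells, and so did those of IL6, −1.34 and −1.13. Set against the shNSi ratio of heavy to moderate, since the shDAP5 light libraries carry the code of that pool, LIFR overlapped (1.13 and 0.39 in shDAP5, 0.86 and 1.05 in shNSi), and the 3 ligands lay below both shNSi cultures, whose ratios were −0.80 and −0.43 for IL11, −0.77 and −0.60 for IL6 and −0.40 and −0.09 for LIF.

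**Figure D2:**
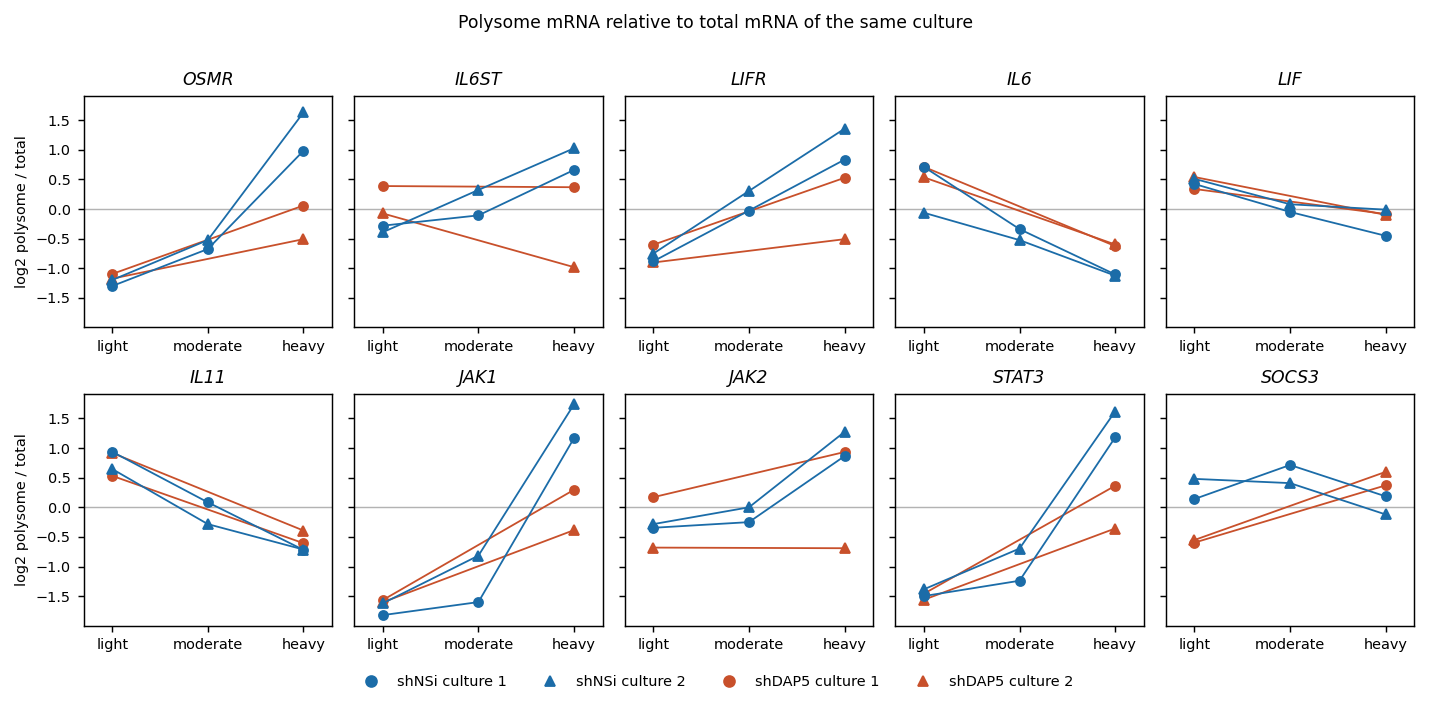
Log2 ratio of each polysome library to the total library of the same culture, with 1 line for each culture (shNSi blue, shDAP5 orange; no moderate pool in shDAP5). At the heavy end both shDAP5 lines lie below both shNSi lines for OSMR, IL6ST, LIFR, JAK1 and STAT3, and above them for IL6, IL11 and SOCS3. The share of all genes that separate in this way was not counted.

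The first comparison asked whether the abundance of these mRNAs changed when DAP5 was silenced. In total mRNA none of the 10 members passed the adjusted threshold of 0.05, where 0.354% of 14992 genes did by edgeR's test. At an unadjusted p under 0.05 there were 3 members, IL6, IL11 and OSMR, beside 1799 of 14992 genes. DESeq2 called 0 members, beside 274 genes. The members' median log2 change was −0.0025, beside 0.01 over all genes.

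IL6, the founding cytokine of the family, stood at 15.8 and 40.6 CPM in shNSi total mRNA and at 57.5 and 60.7 CPM in shDAP5. Both shDAP5 cultures were higher, but the shNSi cultures themselves differed widely, and the log2 change was 1.10 (standard error 0.41, adjusted p = 0.373, edgeR). IL11, a cytokine linked to bone metastasis of breast cancer, had 83.3 and 147 CPM in shNSi and 142 and 211 in shDAP5 (log2 change 0.64, standard error 0.28), and its cultures overlapped.
OSMR, the oncostatin M receptor, stood at 57.1 and 67.1 CPM in shNSi and at 43.8 and 47.6 CPM in shDAP5, lower in both shDAP5 cultures. Its log2 change was −0.41 (standard error 0.19, adjusted p = 0.389, edgeR). The other 7 members had log2 changes between −0.27 for LIF and 0.41 for JAK2, and none had an adjusted p under 0.63. Without shNSi culture 2, IL6 and IL11 passed the threshold, with log2 changes of 1.91 and 1.09, beside 130 of 15703 genes.

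On heavy polysomes the mRNAs of OSMR, IL6ST, JAK1 and STAT3 fell, those of IL6, IL11 and SOCS3 rose, and LIFR, JAK2 and LIF did not pass the test. In all 7 of 10 members passed the threshold, where 30.9% of 14270 genes did: 4 were lower, where 16.7% of genes were lower, and 3 were higher, where 14.2% of genes were higher. The median over the members was −0.41 (log2), beside 0.09 over all genes. Without TMM scaling the median over all genes was 0.34 in place of 0.09, and 1139 genes were lower and 2504 higher in place of 2390 and 2024. Under it OSMR, JAK1 and STAT3 still passed as lower, and IL6, IL11 and SOCS3 as higher, while IL6ST did not pass. In bulk RNA, fewer cells carrying an mRNA and less of it per cell cannot be told apart.

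OSMR stood at 113 and 208 CPM in the shNSi heavy libraries and at 45.7 and 33.5 CPM in the shDAP5 heavy libraries, so that the lower shNSi culture was still above the higher shDAP5 culture. The log2 change was −1.83 (standard error 0.34, adjusted p = 8.39e-06, edgeR), 3.55-fold lower. OSMR is on the list of strongly reduced mRNAs that the study drew from these same libraries, so its direction here is not independent evidence.
IL6ST, the subunit that all these receptors share, fell from 225 and 265 CPM to 115 and 74.5 CPM, again without overlap. Its log2 change was −1.18 (standard error 0.34, adjusted p = 0.00453, edgeR). LIFR, the receptor subunit for LIF, had 20.3 and 27.3 CPM in shNSi and 17.8 and 10.5 CPM in shDAP5, lower in both shDAP5 cultures, with a log2 change of −0.56 that did not pass (standard error 0.34, adjusted p = 0.203, edgeR).

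JAK1, the main kinase bound to IL6ST, fell from 225 and 273 CPM to 90.7 and 57.6 CPM (log2 change −1.56, standard error 0.34, adjusted p = 0.000177, edgeR). STAT3, the transcription factor that the kinases activate, fell from 333 and 458 CPM to 151 and 101 CPM (log2 change −1.47, standard error 0.36, adjusted p = 0.000722, edgeR). Neither gene's cultures overlapped, and for both, as for OSMR and IL6ST, the lower of the shDAP5 cultures was culture 2. JAK2 was read 55 to 172 times per library, and its 6.34 and 5.59 CPM in shNSi overlapped with 6.02 and 2.74 CPM in shDAP5 (log2 change −0.27, standard error 0.41).

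IL6 rose from 7.37 and 18.6 CPM in shNSi heavy polysomes to 37.3 and 40.1 CPM in shDAP5, above both control cultures. The log2 change was 1.77 (standard error 0.35, adjusted p = 3.21e-05, edgeR), 3.41-fold higher, and lay between 1.15 (without shNSi culture 1) and 2.54 (without shNSi culture 2) with a culture left out. IL11 rose from 50.6 and 89.8 CPM to 93.1 and 161 CPM, where the lower shDAP5 culture was just above the higher shNSi culture.
Its log2 change was 1.05 (standard error 0.33, adjusted p = 0.0102, edgeR). SOCS3, which blocks JAK activity, rose from 63.2 and 67.4 CPM to 86.5 and 115 CPM (log2 change 0.81, standard error 0.33, adjusted p = 0.0449, edgeR). With offsets for coding sequence length in the fit none of these 3 passed. LIF had 48.1 and 121 CPM in shNSi around 72.3 and 70.6 CPM in shDAP5, with a log2 change of −0.05.

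Without shDAP5 culture 2, none of the 10 members passed in heavy polysomes, in a fit where 2 of 14891 genes did, and the log2 changes of OSMR, JAK1 and STAT3 were −1.65, −1.30 and −1.23. Of the 12 alternatives that kept the heavy pool alone as the control, OSMR, JAK1 and STAT3 passed in 11, IL6 in 10, IL6ST in 9, IL11 in 7 and SOCS3 in 4. With the shNSi moderate pool added to the control, OSMR and IL6 alone passed of the 10, beside 421 of 15184 genes. Against the moderate pool as the control 0 passed, beside 50 of 14539 genes.

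**Figure D3:**
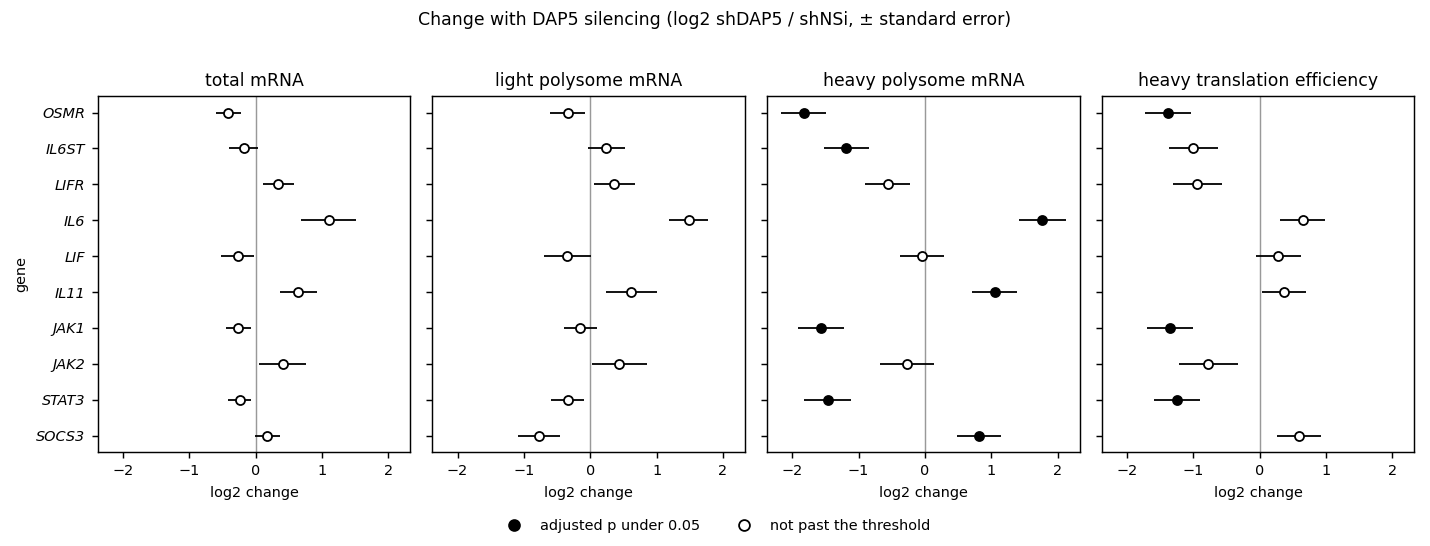
Log2 change (shDAP5 over shNSi) of each member with its standard error, in total mRNA, light polysome mRNA, heavy polysome mRNA and heavy translation efficiency. Filled points have an adjusted p under 0.05 by edgeR: none in total mRNA or light polysomes, 7 in heavy polysomes and 3 in heavy translation efficiency.

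Translation efficiency was the change in heavy polysome mRNA beyond that in total mRNA of the same culture, tested as an interaction in a model of 8 libraries. OSMR, JAK1 and STAT3 fell, the first by 2.61-fold. No ligand passed in either direction. The 3 calls, all lower, stand beside 13.1% of 15374 genes called, 8.23% lower and 4.85% higher.

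The log2 ratio of heavy to total OSMR was 0.98 and 1.63 in shNSi cells and 0.06 and −0.51 in shDAP5 cells. Both shDAP5 cultures were lower, and the log2 change in translation efficiency was −1.39 (standard error 0.35, adjusted p = 0.00993, edgeR). JAK1 had ratios of 1.17 and 1.74 in shNSi and 0.30 and −0.39 in shDAP5.
For JAK1 the log2 change was −1.35 (standard error 0.34, adjusted p = 0.0110, edgeR). STAT3 had ratios of 1.18 and 1.62 in shNSi and 0.36 and −0.36 in shDAP5, with a log2 change of −1.25 (standard error 0.35, adjusted p = 0.0173, edgeR). None of the 3 overlapped between the lines.

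The other receptor subunits had log2 changes of the same sign that missed the threshold: −1.0 for IL6ST (adjusted p = 0.0632, edgeR) and −0.94 for LIFR (adjusted p = 0.0770, edgeR). With a culture left out they ranged from −1.65 (without shDAP5 culture 1) to −0.36 (without shDAP5 culture 2) for IL6ST and, for the same cultures, from −1.43 to −0.46 for LIFR. The ratios of JAK2 overlapped, 0.86 and 1.27 in shNSi against 0.93 and −0.69 in shDAP5 (log2 change −0.77). The 4 members that are ligands or SOCS3 had positive values, from 0.28 for LIF to 0.65 for IL6 (adjusted p = 0.195, edgeR). The rise of IL6 in heavy polysomes (1.77) stood beside a log2 change of 1.10 in total mRNA. No member passed without shDAP5 culture 2 (beside 43 of 15914 genes), without shNSi culture 2 (4 of 15976) or with library sizes not scaled by TMM (0 of 15374). Without shDAP5 culture 1, 6 members passed, all lower, beside 4515 of 15845 genes, of which 2453 were lower. OSMR and JAK1 passed in 7 of the 12 alternatives with the heavy pool alone as the control, and STAT3 in 4. With the shNSi moderate pool added to the control 0 members passed, beside 0 of 15386 genes. No member then had an unadjusted p under 0.05, beside 386 genes that did.

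Coding sequence length moved with these values. The 6 members with coding sequences over 2000 nucleotides (receptors, kinases and STAT3) had a median log2 change in heavy translation efficiency of −1.13, and the 4 with fewer than 1000 nucleotides (ligands and SOCS3) had a median of 0.48. Over all genes the same medians were −0.69 for 3924 genes over 2000 nucleotides and 0.63 for 3701 genes under 1000 nucleotides, and Spearman's rho between length and the change was −0.71 across 12482 genes, which are not independent. When offsets for coding length were put in the fit, 3 members passed in heavy polysome mRNA (JAK1, OSMR and STAT3, all lower), beside 1459 of 12137 genes. In heavy translation efficiency 0 passed, beside 574 of 12482 genes. At an unadjusted p under 0.05 there were 3 members, beside 2660 of the 12482 genes. These were OSMR, JAK1 and STAT3, with log2 changes of −0.77, −0.65 and −0.79. The part of length in the members' values beyond this was not tested.

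**Figure D4:**
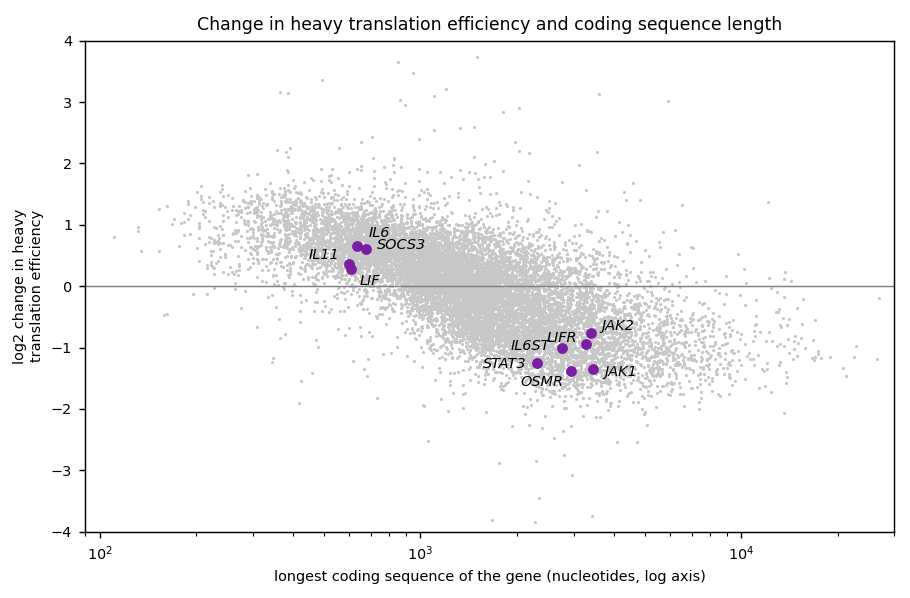
Log2 change in heavy translation efficiency (shDAP5 over shNSi) against the longest coding sequence of each gene in nucleotides (log axis), for 12482 genes (grey; at most 9 lie outside the axes) and the 10 members (purple, named). The members lie within the downward cloud of all genes, the ligands and SOCS3 at the short end and the receptors, kinases and STAT3 at the long end.

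Light polysomes hold mRNAs with few ribosomes. There, none of the 10 members passed, and 0% of 15529 genes did by edgeR's test. At an unadjusted p under 0.05 there were 1330 genes, and DESeq2 called 105 genes, among them 1 member, IL6. The members at an unadjusted p under 0.05 were IL6 and SOCS3.

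IL6 had 25.9 and 38.9 CPM in shNSi light polysomes and 94.3 and 88.1 CPM in shDAP5, both far higher (log2 change 1.49, standard error 0.30, adjusted p = 0.403, edgeR). SOCS3 had 61.2 and 102 CPM in shNSi and 44.2 and 51.9 CPM in shDAP5, both lower (log2 change −0.77, standard error 0.31, adjusted p = 0.559, edgeR). The remaining members had smaller differences.
OSMR, JAK1 and STAT3 had log2 changes of −0.34, −0.15 and −0.34. IL6ST, LIFR and JAK2 had 0.24, 0.36 and 0.44. LIF had −0.35 and IL11 had 0.62. Without shNSi culture 1, IL6 passed as higher and SOCS3 and LIF as lower (log2 changes 1.21, −1.11 and −0.77), beside 4678 of 16190 genes. Without shNSi culture 2, IL6 and IL11 passed as higher (1.81 and 0.91), beside 781 of 16193 genes.

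In light translation efficiency, the change in light polysome mRNA beyond that in total mRNA, none of the 10 members passed, beside 0% of 15967 genes. At an unadjusted p under 0.05 edgeR counted 833 genes and 1 member, SOCS3, and DESeq2 called no gene. SOCS3 had log2 ratios of light to total of 0.14 and 0.48 in shNSi and −0.60 and −0.55 in shDAP5, both lower, with a log2 change of −0.89 (standard error 0.21, adjusted p = 0.879, edgeR). The other 9 members lay between −0.07 for STAT3 and 0.49 for IL6ST. Without shNSi culture 1, SOCS3 passed as lower and IL6 as higher (−1.05 and 0.69), beside 2030 of 16467 genes. With the moderate pool as the shNSi control, which is the pool whose code the shDAP5 light libraries carry, 4 members passed in light polysome mRNA, beside 3940 of 15431 genes: IL6 and IL11 higher, OSMR and SOCS3 lower. In light translation efficiency 3 then passed, beside 4367 of 15859 genes: IL6 higher (1.07), LIFR and SOCS3 lower (−0.88 and −1.12).

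A last comparison asked whether the change with silencing differed between heavy and light polysomes. It did for 4 members: OSMR, IL6ST and JAK1 changed more towards lower levels in heavy than in light polysomes, and SOCS3 more towards higher levels. They stand beside 6.75% of 15878 genes called, 5.21% lower and 1.54% higher. The differences were −1.55 for OSMR (standard error 0.41, adjusted p = 0.0300, edgeR), −1.54 for IL6ST (0.45, adjusted p = 0.0434, edgeR) and −1.53 for JAK1 (0.42, adjusted p = 0.0342, edgeR). For SOCS3 the difference was 1.43 (0.41, adjusted p = 0.0387, edgeR), with its light level lower and its heavy level higher in both shDAP5 cultures.
STAT3 missed the threshold with −1.23 (adjusted p = 0.0852, edgeR), as did LIFR with −1.05 and JAK2 with −0.89. For the 3 ligands the difference was 0.26 to 0.38, so no change between fractions was resolved. None of the 10 passed without shDAP5 culture 1 (beside 789 of 16455 genes), shDAP5 culture 2 (2 of 16584) or shNSi culture 2 (747 of 16578), or with no culture terms (0 of 15878). With the replicate number as a block OSMR alone passed of the 10, beside 778 of 15878 genes. With a culture left out the difference lay between −1.82 and −1.27 for OSMR and between 1.12 and 1.77 for SOCS3. With the shNSi moderate pool in place of the light pool, IL6ST (−1.10) and SOCS3 (1.68) passed, and OSMR (−0.90) and JAK1 (−1.02) did not, beside 3762 of 15754 genes.

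The wider pathway was read through 57 other genes, of which 52 had enough reads to be tested. In heavy translation efficiency 5 were lower and 0 higher, where 8.23% and 4.85% of all genes were, and their median was 0.01. Among them were the sheddases ADAM10 and ADAM17, which release receptor ectodomains, the transcription factor STAT2, and PIAS1, a SUMO ligase that inhibits STAT activity. ADAM10 had 123 and 181 CPM in shNSi heavy polysomes and 35.3 and 29.3 CPM in shDAP5, and its log2 change in heavy translation efficiency was −1.58 (standard error 0.35, adjusted p = 0.00750, edgeR). Its shDAP5 cultures were both far below its shNSi cultures.
ADAM17, PIAS1 and STAT2 changed by −1.15, −1.11 and −0.98. Each of these 3 passed in 4 of the 12 alternatives with the heavy pool alone as the control, and ADAM10 in 8. None of the 4 passed without shDAP5 culture 2 or without shNSi culture 2, where their adjusted p reached 0.660 (edgeR), and ADAM17, PIAS1 and STAT2 did not pass without shNSi culture 1 either.

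In total mRNA 1 of the 52 passed: SOCS2, a feedback inhibitor related to SOCS3. It had 6.41 and 5.84 CPM in shNSi and 20.7 and 14.2 CPM in shDAP5 (log2 change 1.54, standard error 0.26, adjusted p = 0.0211, edgeR). With a culture left out its log2 change lay between 1.2 and 1.8. In heavy polysome mRNA 9 of the 52 were lower and 8 higher, shares of 17.3% and 15.4% that lie near the 16.7% and 14.2% of all genes. By role, of 8 kinases, adaptors and sheddases 2 were lower and none higher, and of 6 other STATs 4 were lower and none higher. Of 4 other receptors 1 was lower, of 4 other ligands 1 was higher, and of 14 other inhibitors 1 was lower and 2 higher. Of 16 genes known as STAT3 targets, 5 were higher and 1 lower.
The 6 STAT3 targets, named after their values were seen, were BCL3 (log2 change 2.23), CEBPD (1.54), CEBPB (1.08), MYC (0.91) and VEGFA (0.83), which rose in heavy polysomes, and BCL6 (−1.18), which fell. The coding sequences of the 5 that rose have 807 to 1362 nucleotides, and that of BCL6 has 2118. The part of length in these changes was not tested. The cultures of VEGFA overlapped, with 48.4 and 111 CPM in shNSi and 110 and 138 CPM in shDAP5. None of the 6 passed without shDAP5 culture 2, and MYC and VEGFA did not pass by DESeq2 either. None of the 16 passed in total mRNA or in heavy translation efficiency. In light polysomes and in light translation efficiency none of the 52 passed.

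**Figure D5:**
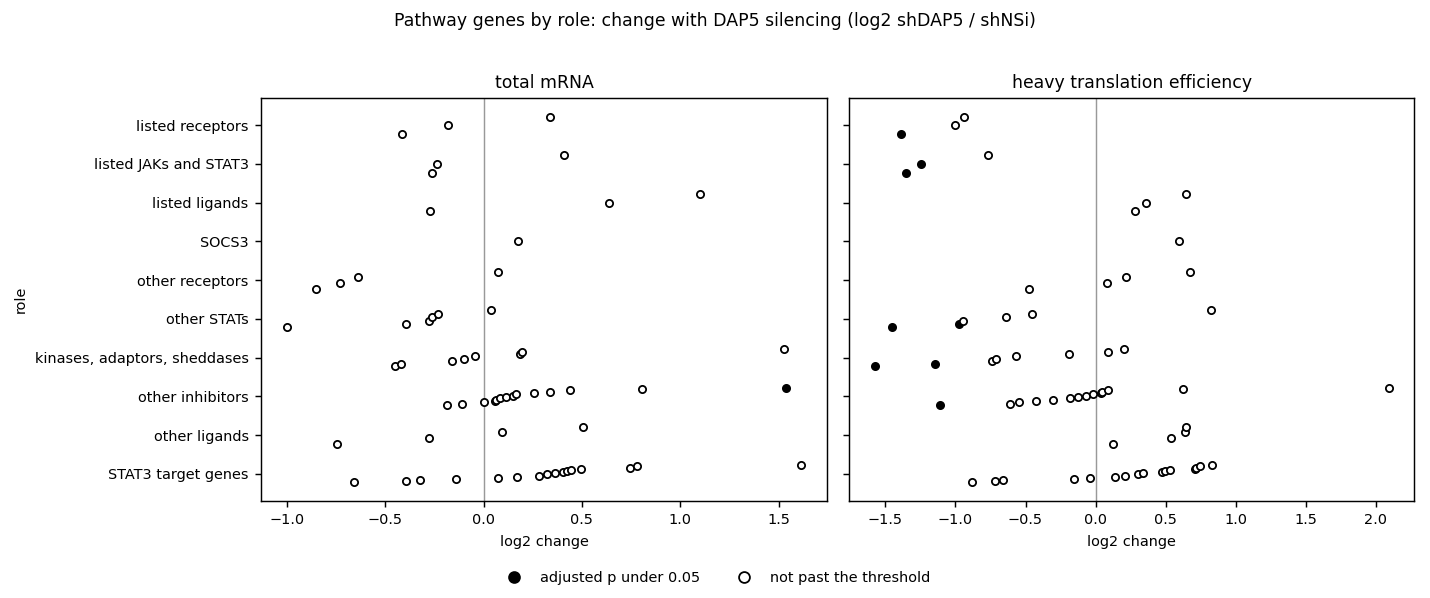
Log2 change (shDAP5 over shNSi) in total mRNA (left) and in heavy translation efficiency (right) of the listed members and the other pathway genes tested, by role, with 1 point for each gene. Filled points have an adjusted p under 0.05 by edgeR: SOCS2 on the left, and on the right 3 members (OSMR, JAK1 and STAT3) and 5 other pathway genes, all lower.

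The genes whose pattern over the 14 libraries was most like that of OSMR, by Pearson's r of log2 CPM among 16234 genes, were ATP2A2 (0.993), SERINC1 (0.990), CANX (0.986), IGSF3 (0.985) and ADAM10 (0.985). Among the members the same measure was 0.97 for STAT3, 0.95 for JAK1, 0.87 for LIFR, 0.72 for IL6ST, 0.58 for JAK2, 0.06 for SOCS3, −0.14 for LIF, −0.59 for IL6 and −0.69 for IL11. These values describe libraries that share cultures and fractions. OSMR overlaps RICTOR, a gene on the opposite strand with 6.56 to 32.3 CPM, and whether counting used strand is not stated outside a file's own name, so a share of its reads could belong to RICTOR. The antisense transcript LIFR-AS1 reached at most 1.06 CPM, and the pseudogene IL6STP1 at most 0.0339 CPM. OSMR-AS1, annotated as a lincRNA that lies beside OSMR without overlap, reached at most 1.09 CPM.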

How the data were processed

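RNA sequencing of 14 MDA-MB-231 libraries was analysed. The table the authors deposited holds counts of reads, in whole numbers and not normalized, for 58434 gene symbols. The submitters' processing notes name STAR 2.6.0a, limma and hg19, and the counting settings are not given in the sources used here. The study quantile normalized total and polysome mRNA independently and tested with limma, which was run here as an alternative.

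Counts were tested in R 4.3.3 by edgeR 4.0.16 (quasi-likelihood test, filterByExpr, TMM, robust estimation), over all genes, with Benjamini-Hochberg adjustment and a threshold of 0.05. Single fractions used 4 libraries. Translation efficiency and the heavy against light difference used 8, with a term for each culture and the interaction of fraction and shRNA. Each group had 2 cultures, for which 0.333 is the smallest two-sided p of an exact permutation test, and edgeR's p-values draw their spread from all genes. Library totals ran from 25899838 to 30795910 counts, and the number of cultures limits precision, as does depth for JAK2 with 55 to 172 counts. Coding and exon lengths came from GENCODE v29, where 37621 symbols matched, and scripts were tested on simulated data.

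The members and lists were chosen with earlier results of these data known. All 10 members were named in every comparison. Other pathway genes were named where past the threshold in total mRNA or heavy translation efficiency without overlap of cultures, at most 2 per list and direction. The 6 STAT3 targets past the threshold in heavy polysome mRNA were named outside this rule, after their values were seen. Some results that the rule would name are not reported here.

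The alternatives were DESeq2 1.42.0, library size without TMM, limma 3.58.1 on quantile-normalized log2 of CPM plus 1, no filter, a minimum of 10 counts per library, a replicate block, leaving out each culture in turn, 1 fit of all 14 libraries, omission of the culture terms, offsets for coding length, and a control made of the shNSi moderate pool or of that pool summed with the matching one. For the heavy against light difference the moderate pool in place of the shNSi light pool was added after seeing the data.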

Additional observations from a re-analysis of the deposited data

Results flagged for a closer look

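For 4 members the change with DAP5 silencing in heavy polysomes differed from that in light polysomes by a test of the difference itself (edgeR, interaction of fraction and shRNA, adjusted over 15878 genes). The heavy minus light difference on the log2 scale was −1.55 for OSMR, −1.54 for IL6ST and −1.53 for JAK1. For SOCS3 it was 1.43. The heavy log2 changes of these genes were −1.83, −1.18, −1.56 and 0.81, and the light ones −0.34, 0.24, −0.15 and −0.77. SOCS3 and IL6ST therefore had values of opposite sign in the fractions, although none of the light values passed the threshold. Leaving out shDAP5 culture 1, shDAP5 culture 2 or shNSi culture 2 ended all 4 calls, in fits where 789 of 16455, 2 of 16584 and 747 of 16578 genes passed. Over all cultures left out in turn the difference lay between −1.82 and −1.27 for OSMR, −2.02 and −1.10 for IL6ST, −1.89 and −1.21 for JAK1, and 1.12 and 1.77 for SOCS3. By limma only SOCS3 passed of the 4, beside 820 of 15878 genes, and with the replicate block only OSMR, beside 778. With the shNSi moderate pool, whose code the shDAP5 light libraries carry, in place of the light pool, IL6ST (−1.10) and SOCS3 (1.68) passed, and OSMR (−0.90) and JAK1 (−1.02) did not.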

How the results depend on the processing

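With 2 cultures in a group, single cultures decided several counts of members called. Depth limited JAK2 most.

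Of the 10 members, 0 passed in total mRNA, 1 without a filter on low counts, 2 with the replicate block, and 0 to 2 with a culture left out. In heavy polysome mRNA 7 passed, 0 against the shNSi moderate pool, 2 with that pool added to the control, 3 with offsets for coding length, and 0 to 6 with a culture left out (0 without shDAP5 culture 2). In heavy translation efficiency 3 passed, 0 with library size without TMM, without a term for each culture, against the moderate pool, with that pool added, or with length offsets, and 0 to 6 with a culture left out. In the heavy against light difference 4 passed, 1 by limma, 1 with the replicate block (OSMR), 2 with the moderate pool in place of the shNSi light pool (an alternative chosen after seeing the data), 0 without a term for each culture, and 0 to 5 with a culture left out. In light polysome mRNA 0 passed, 1 by DESeq2, without a filter, with the replicate block or with the moderate pool added, 4 against the moderate pool, and 0 to 3 with a culture left out. In light translation efficiency 0 passed, 3 against the moderate pool, 1 with that pool added, and 0 to 2 with a culture left out. The causes were not tested. Over all genes, edgeR called 53 in total mRNA and DESeq2 274, 0 against 105 in light polysome mRNA and 1072 against 1921 in the heavy against light difference. In total mRNA 577 of 26388 genes passed with no filter and 365 of 14992 with the replicate block. In heavy polysome mRNA 4414 of 14270 passed, 50 of 14539 against the moderate pool, 421 of 15184 with it added and 1459 of 12137 with length offsets. In light polysome mRNA 244 of 27133 passed with no filter and 130 of 15529 with the replicate block. There 3940 of 15431 passed against the moderate pool and 114 of 16292 with it added. In heavy translation efficiency 2012 of 15374 genes passed, 688 with the replicate block and 574 of 12482 with length offsets. No gene passed there without TMM or without a term for each culture (0 of 15374 each). None passed against the moderate pool (0 of 15434) or with that pool added (0 of 15386). In light translation efficiency 4367 of 15859 passed against the moderate pool and 454 of 15898 with it added. In the heavy against light difference 820 of 15878 passed by limma and 778 with the replicate block.

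Replicate numbers are shared between the lines, but nothing in the labels ties an shNSi to an shDAP5 culture. Deviations of same-numbered libraries from their group means correlated by −0.09 in total, 0.04 in light and 0.05 in heavy libraries. Whether same-numbered cultures were handled together was not tested. The replicate block gave 2 members in total mRNA (beside 365 of 14992 genes), 7 in heavy polysome mRNA (4710 of 14270) and 1 in light polysome mRNA (130 of 15529). It gave 2 in heavy translation efficiency (688 of 15374) and 0 in light translation efficiency (1 of 15967). In the heavy against light difference it gave 1 (778 of 15878).

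Of the alternative values for single genes, 643 kept their direction and side of the threshold, 114 kept their direction but no longer passed, 30 newly passed and 61 changed sign. With the moderate pool as the control, shDAP5 heavy libraries are set beside a pool with other levels. JAK1 had 33.0 and 46.4 CPM there, and 225 and 273 in shNSi heavy polysomes. Only the shNSi gradients had that pool, and whether its mRNAs lay in the shDAP5 heavy libraries was not tested. With that control the log2 changes in heavy polysome mRNA became 0.91 for JAK1, 0.72 for STAT3, 0.75 for JAK2 and 0.23 for LIFR. Under the same control those in heavy translation efficiency became 0.35 for OSMR, 1.14 for JAK1, 0.95 for STAT3, 0.25 for JAK2, −0.42 for IL11, −0.20 for IL6, −0.13 for LIF and −0.097 for SOCS3. For other pathway genes they became 0.28 for ADAM10, 0.15 for ADAM17, 0.45 for PIAS1 and 0.89 for STAT2. In light polysome mRNA that control gave −0.19 for IL6ST, 0.11 for LIF and −0.58 for LIFR, and in light translation efficiency 0.84 for IL11, −0.36 for JAK1, −0.11 for JAK2, 0.44 for LIF, −0.88 for LIFR and −0.52 for OSMR. With the pool added, heavy JAK2 became 0.20, IL11 heavy translation efficiency −0.011 and light LIFR −0.19, and light translation efficiency became 0.35 for IL11, −0.11 for JAK1, 0.22 for LIF, −0.45 for LIFR and −0.20 for OSMR.

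With length offsets, heavy polysome JAK2 and LIFR became 0.40 and 0.13, and heavy translation efficiency −0.29 for IL11 and −0.36 for LIF. Without TMM, heavy JAK2 became 0.0074 and heavy LIF 0.21. By limma, heavy LIF became 0.23, and light translation efficiency −0.023 for JAK2, 0.030 for LIF and −0.014 for LIFR. Heavy LIF was 0.091 with the replicate block, and IL11 light translation efficiency 0.012 with the culture terms omitted.

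Leaving out 1 culture turned the sign of IL6ST in total mRNA (−0.59 to 0.12), LIF in total mRNA (−0.67 to 0.22), SOCS3 in total mRNA (−0.032 to 0.38), heavy JAK2 (−0.98 to 0.16), heavy LIF (−0.66 to 0.72) and light LIF (−0.77 to 0.22). It did so in light translation efficiency for IL11 (−0.27 to 0.10, with 0.082 without shNSi culture 1), IL6 (−0.12 to 0.69), JAK2 (−0.39 to 0.48), LIF (−0.14 to 0.049) and LIFR (−0.11 to 0.20), and in the heavy against light difference for IL6 (−0.064 to 0.69). With the moderate pool in place of the light pool that difference became −0.51 for IL11, −0.46 for IL6 and −0.19 for LIF.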
